A study of Homo sapiens with 12 samples.

Results

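CD38, BST1, SARM1, NAMPT, NMNAT1, NMNAT2, NMNAT3, NADSYN1, PARP1 and SIRT1, which break down, make or use the coenzyme NAD, were followed in differentiating SH-SY5Y cells given hydrogen peroxide (H2O2). These 10 genes were taken by name from the 55765 gene symbols counted in each of 12 libraries. CD38 had already been picked out in the study from these same libraries, so its response is no independent evidence of its direction.

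SH-SY5Y is a human neuroblastoma line cloned from SK-N-SH, a line grown from a bone marrow metastasis, and it stops dividing and extends neurites in all-trans retinoic acid (ATRA). All 4 groups received 10 μM ATRA for 7 days, so the cells before differentiation are not represented, and all 12 libraries come from this 1 line. Ribosomal RNA was removed from total RNA before sequencing, and reads were counted per gene. In the co-treatment experiment, 3 libraries came from cells given H2O2 together with ATRA over the 7 days, and 3 from cells given ATRA alone. For the pre-treatment experiment, 3 libraries came from cells exposed to H2O2 in the 72 h before ATRA, and 3 from cells with no H2O2 before the same ATRA course. The H2O2 dose is 10 mM in the deposited design text and 10 μM in the study's methods, so both are given here. No source used here says that replicates were separate cultures, so the p-values measure only the spread between these libraries.

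NAD carries electrons in energy metabolism and is also consumed as a substrate. CD38 and BST1 (CD157) are related enzymes of the cell surface, best known from blood cells, that split NAD and form cyclic ADP-ribose, a messenger that releases calcium, while SARM1 is an NAD-cleaving enzyme of neurons that drives the breakdown of injured axons. NAMPT starts the salvage of NAD from nicotinamide, the 3 NMNAT enzymes join its product to ATP in the nucleus (NMNAT1), the Golgi and axon (NMNAT2) and, as mostly reported, mitochondria (NMNAT3), NADSYN1 completes synthesis from nicotinic acid and tryptophan, PARP1 spends NAD on poly(ADP-ribose) at DNA breaks, and SIRT1 spends it on removing acetyl groups from proteins.

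Reads on genes ranged from 27576276 to 98287391 per library. The pre-treatment controls split, with replicate 3 on one side and replicates 1 and 2 on the other. Counts of control replicate 3 differed from those of the other 2 with a chi-square per degree of freedom of 553 and 507. The other pairs of replicates gave 25.1 to 149. The counting assigned 0.800 and 0.830 reads to no feature per read on a gene in the 2 other pre-treatment controls. This ratio was 0.200 in control replicate 3, 0.343 to 0.462 in the pre-treated libraries and 0.263 to 0.429 in the co-treatment experiment. Whether such reads lie in introns or between genes cannot be told from the counts. Small RNA genes took 1.58% and 2.87% of gene reads in those 2 controls, 17.6% in control replicate 3, 13.3% to 15.0% in the pre-treated libraries and 5.04% to 13.0% in the co-treatment experiment. The pre-treatment result of each of the 10 genes is therefore given for all 6 libraries and again without control replicate 3. The second fit keeps as controls only the 2 libraries with the most reads assigned to no feature per gene read and the lowest small RNA share of the 12. Which of the controls are unusual was not tested.

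The 250 bases before the start of 4 genes are shown because these were the members whose H2O2-treated and control libraries did not overlap in the pre-treatment experiment with all 6 libraries (16.4% of all genes tested there), CD38 being the one that did so in both experiments. The sequences are those of RefSeq on GRCh38.p14, where 9 of the 10 members matched an entry, written in the direction of the gene and ending at the base before its start. Capitals mark every match on either strand to any of 6 motifs. These were the core of the antioxidant response element, TGACNNNGC, the retinoid receptor half-site, AGGTCA, and its variant, GGGTCA, besides the GC box, spelled GGGCGG, the TATA element, spelled TATAAA, and the CCAAT box.
CD38 (chr4:15778078-15778327, plus strand): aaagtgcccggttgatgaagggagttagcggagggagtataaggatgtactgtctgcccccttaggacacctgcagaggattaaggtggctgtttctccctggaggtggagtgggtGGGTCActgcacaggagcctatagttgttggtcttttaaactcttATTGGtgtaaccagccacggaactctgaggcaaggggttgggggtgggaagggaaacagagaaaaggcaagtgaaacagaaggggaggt
SARM1 (chr17:28371444-28371693, plus strand): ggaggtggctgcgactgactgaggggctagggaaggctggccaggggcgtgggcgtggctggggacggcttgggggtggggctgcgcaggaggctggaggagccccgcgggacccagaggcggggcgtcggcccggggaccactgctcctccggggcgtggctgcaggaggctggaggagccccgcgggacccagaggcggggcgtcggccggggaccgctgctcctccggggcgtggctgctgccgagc
NAMPT (chr7:106284984-106285233, minus strand): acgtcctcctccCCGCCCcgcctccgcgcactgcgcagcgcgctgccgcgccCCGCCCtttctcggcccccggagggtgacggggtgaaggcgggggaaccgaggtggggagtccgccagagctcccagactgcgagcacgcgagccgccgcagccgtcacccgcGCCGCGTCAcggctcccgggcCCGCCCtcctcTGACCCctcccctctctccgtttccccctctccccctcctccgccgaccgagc
SIRT1 (chr10:67884406-67884655, plus strand): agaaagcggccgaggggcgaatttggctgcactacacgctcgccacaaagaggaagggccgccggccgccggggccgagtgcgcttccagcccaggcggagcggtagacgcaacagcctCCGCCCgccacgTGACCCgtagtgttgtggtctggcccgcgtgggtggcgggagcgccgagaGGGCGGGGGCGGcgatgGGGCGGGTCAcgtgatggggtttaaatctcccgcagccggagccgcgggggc

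The CD38 window held GGGTCA, whose first base lay at position -134 from the start, and a CCAAT box at -89 on the reverse strand, and no match to the other 4 motifs. GGGTCA was present in 12.1% and CCAAT in 32% of the 35116 RefSeq promoter windows of this length. The NAMPT window held TGACNNNGC at -85, a motif present in 10.9% of windows, GGGTCA at -53 and 3 GC boxes, which 42.6% of windows held. The SIRT1 window held GGGTCA at 2 places, the nearer of which overlaps a GC box, and 4 GC boxes in all, and SARM1 held none of the 6 motifs. AGGTCA (12.1% of windows) and TATAAA (10.7%) were in none of the 4 windows. G and C made up 52.4% of the CD38 window, 78% of SARM1, 77.2% of NAMPT and 72% of SIRT1, with a median of 58% over all windows. These matches are descriptions of letters and were not tested for any factor.

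Levels between genes were compared per length, as RPKM over the canonical transcript. PARP1 was the most abundant, with a mean of 113.8 RPKM and a range of 85.7 to 153 over the 12 libraries. NADSYN1 followed at 25.0 RPKM (19.0 to 30.0), and none of its libraries reached the lowest PARP1 value. SIRT1 (13.4 RPKM, range 12.1 to 14.9), NAMPT (12.3, range 10.0 to 14.3) and NMNAT2 (11.5, range 6.95 to 21.1) overlapped each other, and NMNAT2 also overlapped NADSYN1. NMNAT1 (3.62 RPKM, range 2.61 to 4.62) and SARM1 (2.61, range 1.57 to 5.37) overlapped each other, as did SARM1 and NMNAT3 (1.11, range 0.573 to 2.41) and NMNAT3 and BST1 (0.885, range 0.591 to 1.17). CD38 was the lowest at 0.178 RPKM, with a range of 0.0759 to 0.304 that stayed below every BST1 library. In reads per library, CD38 rested on 12 to 100, BST1 on 40 to 224 and NMNAT3 on 48 to 269, while each of the other members had at least 352.

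**Figure D1:**
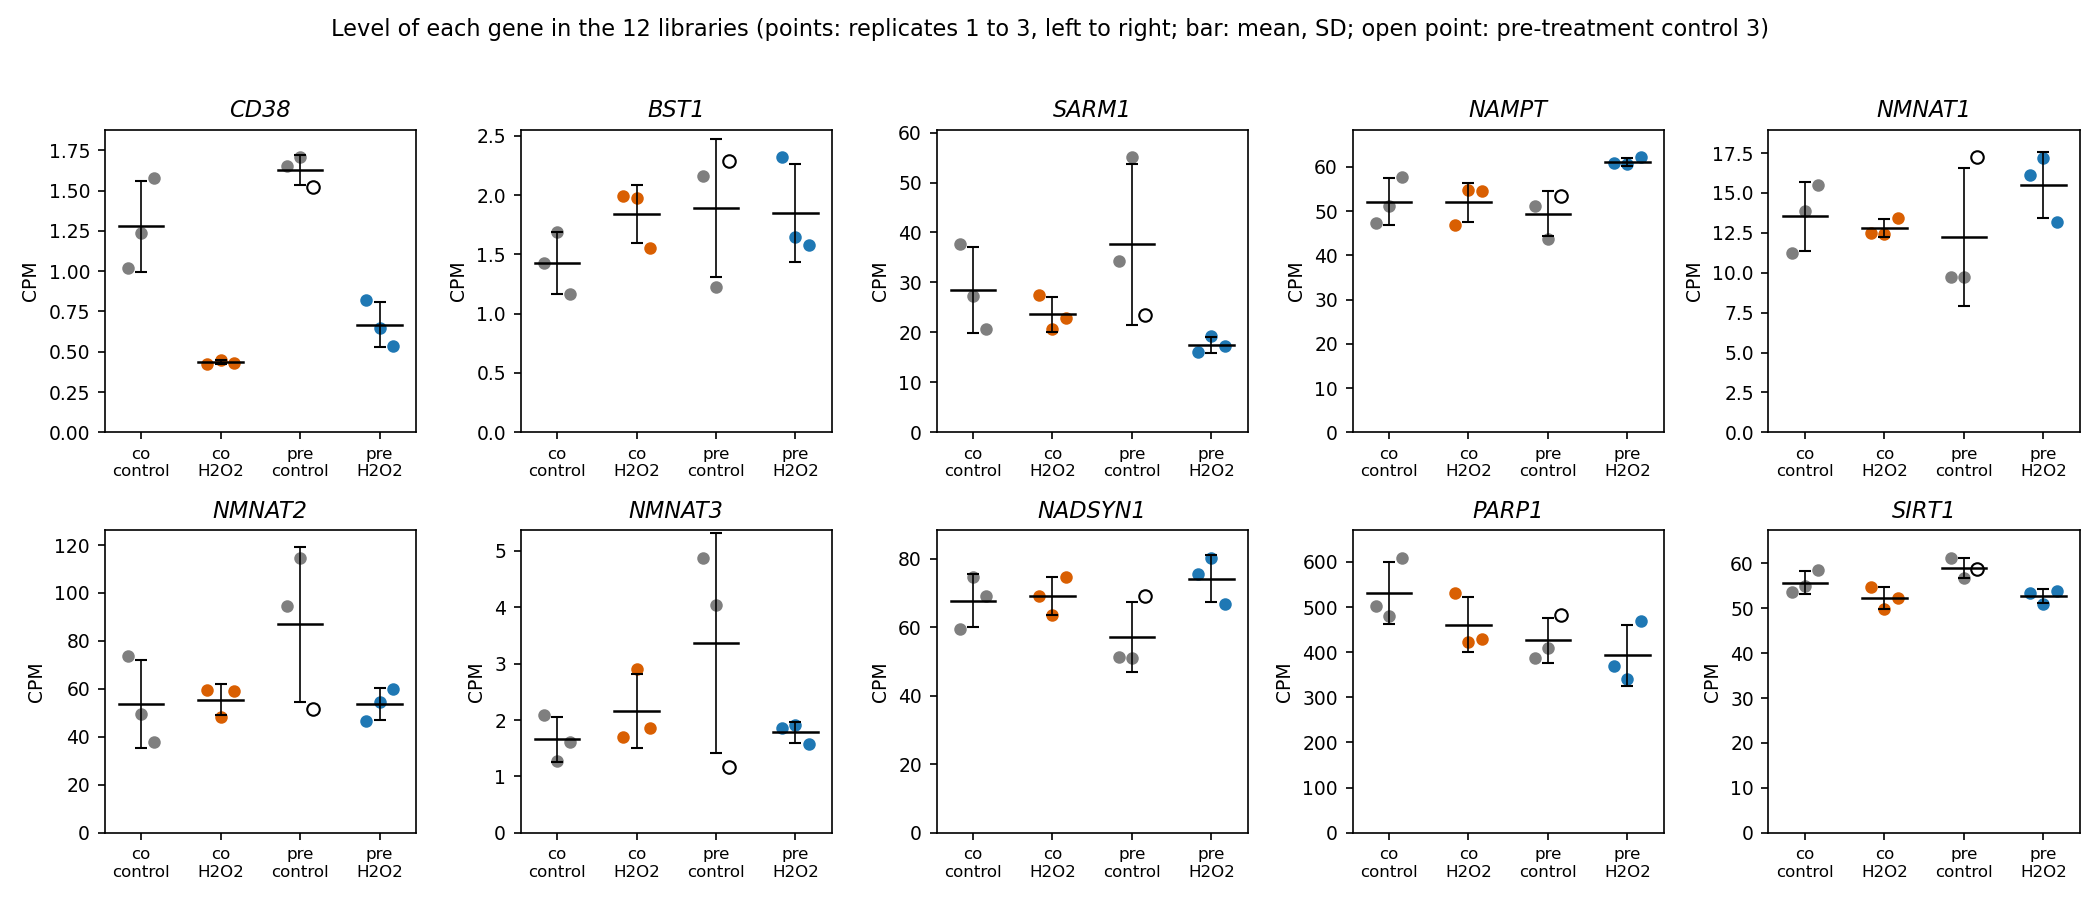
Level of each of the 10 genes (CPM, linear axis from 0) in the 3 libraries of each group, with replicates 1 to 3 from left to right, a bar for the mean and error bars for the SD, and an open point for pre-treatment control replicate 3. CD38 lay at 0.427 to 0.450 CPM in co-treated and 0.539 to 0.819 CPM in pre-treated libraries, below every control library, while the open point lay nearer the treated libraries than the other 2 controls for SARM1, NMNAT1, NMNAT2, NMNAT3 and NADSYN1.

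CD38 was lower in all H2O2-treated libraries than in all controls of both experiments. In co-treatment controls its level was 1.02, 1.24 and 1.58 CPM (50, 58 and 54 reads), and in co-treated cells it was 0.427, 0.450 and 0.428 CPM (12, 28 and 22 reads). The controls of the pre-treatment experiment gave 1.65, 1.71 and 1.52 CPM (91, 78 and 100 reads), and the pre-treated cells gave 0.819, 0.646 and 0.539 CPM (79, 44 and 43 reads). The highest treated library of each experiment lay below its lowest control, and pre-treatment control replicate 3 sat with the other 2 controls for this gene. Groups that do not overlap with the treated side lower were found for 7.37% of genes tested in co-treatment, for 8.47% in pre-treatment and for 0.948% in both. In a pool of cells, fewer cells that express a gene and less of its RNA in each cell cannot be told apart.

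On average CD38 stood at 34.4% of the control level after co-treatment, a log2FC of -1.54 (SE 0.36, 95% interval -2.32 to -0.75), with an unadjusted p of 0.0011 and an FDR of 0.105 by edgeR's quasi-likelihood test with Benjamini-Hochberg adjustment, so it was not called in a test that called 0.598% of genes. After pre-treatment it stood at 42.0% of control, a log2FC of -1.25 (SE 0.33, FDR 0.320) over all 6 libraries, where 0.0242% of genes were called, and at the same -1.25 (SE 0.31) without control replicate 3, now with an FDR of 0.0199 from the same test, which then called 26.1% of genes. DESeq2 called it in both experiments with all libraries, at an adjusted p of 0.0244 in co-treatment and 0.0151 in pre-treatment. The exact test of edgeR, which the study's methods name, called it in co-treatment at an FDR of 0.0107. That test did not call it in pre-treatment with all 6 libraries, unlike the study. In these comparisons both tests also called more genes in all than the quasi-likelihood test, as counted at the end of the report. A fit of 1 response common to both experiments over the 12 libraries, with the experiment as a term, was added after the data had been seen. It put CD38 at a log2FC of -1.41 (SE 0.21) with an FDR of 0.0183 by edgeR's quasi-likelihood test, in 11th place by p among 24407 genes, and called CD38 alone of the 10 genes. That test called 0.135% of genes, and 0.0451% as lower. The value without pre-treatment control replicate 3 was -1.43 (FDR 0.0154), in a fit that called 0.729% of genes and CD38 alone of the members, while 20.1% of genes, and 3 members, had an unadjusted p below 0.05. Leaving out co-treatment control replicate 2, co-treated replicate 2 or co-treated replicate 3 ended the call, with an FDR of 0.0593, 0.0548 and 0.0821.

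BST1, the relative of CD38 beside it on the chromosome, showed no such difference. On hg19, BST1 lies at chromosome 4, bases 15704688 to 15739936, and CD38 at bases 15779898 to 15854855, both on the plus strand and 39961 bases apart. The level of BST1 was 1.43, 1.69 and 1.17 CPM in co-treatment controls and 1.99, 1.98 and 1.56 CPM in co-treated cells, and 2.16, 1.23 and 2.29 CPM in pre-treatment controls and 2.32, 1.65 and 1.58 CPM in pre-treated cells. Treated and control libraries overlapped in both experiments. Its log2FC was 0.36 (SE 0.28, 95% interval -0.25 to 0.97, FDR 0.835) in co-treatment, -0.01 (SE 0.35, 95% interval -0.81 to 0.79, FDR 0.994) in pre-treatment and 0.20 (SE 0.33) without control replicate 3.

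The ratio of the pair within a library needs no scaling between libraries. Per 100 BST1 reads there were 71.4 to 135 CD38 reads in co-treatment controls against 21.4 to 27.5 in co-treated cells, and 66.7 to 139 in pre-treatment controls against 34.1 to 39.3 in pre-treated cells. Every treated library lay below every control library of both experiments. Of the 8 other genes listed around this pair, 6 could be tested in each experiment and none was called with all libraries. TAPT1, a gene for a membrane protein, had the smallest FDR of these in co-treatment (log2FC -0.30, SE 0.13, FDR 0.555) and PROM1, the gene for the stem cell antigen CD133, in pre-treatment (log2FC 2.01, SE 1.02, FDR 0.503). Without control replicate 3, 7 were tested and 3 called, in a fit that called 26.1% of genes. FBXL5, which senses iron in a ubiquitin ligase, was then at 0.54 (SE 0.13, FDR 0.0207, against 0.21 with all 6 libraries) and FAM200B at 0.55 (SE 0.16, FDR 0.0360, against 0.31). CPEB2, which binds messenger RNA, was at -0.59 (SE 0.16, FDR 0.0326, against -0.32).

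**Figure D2:**
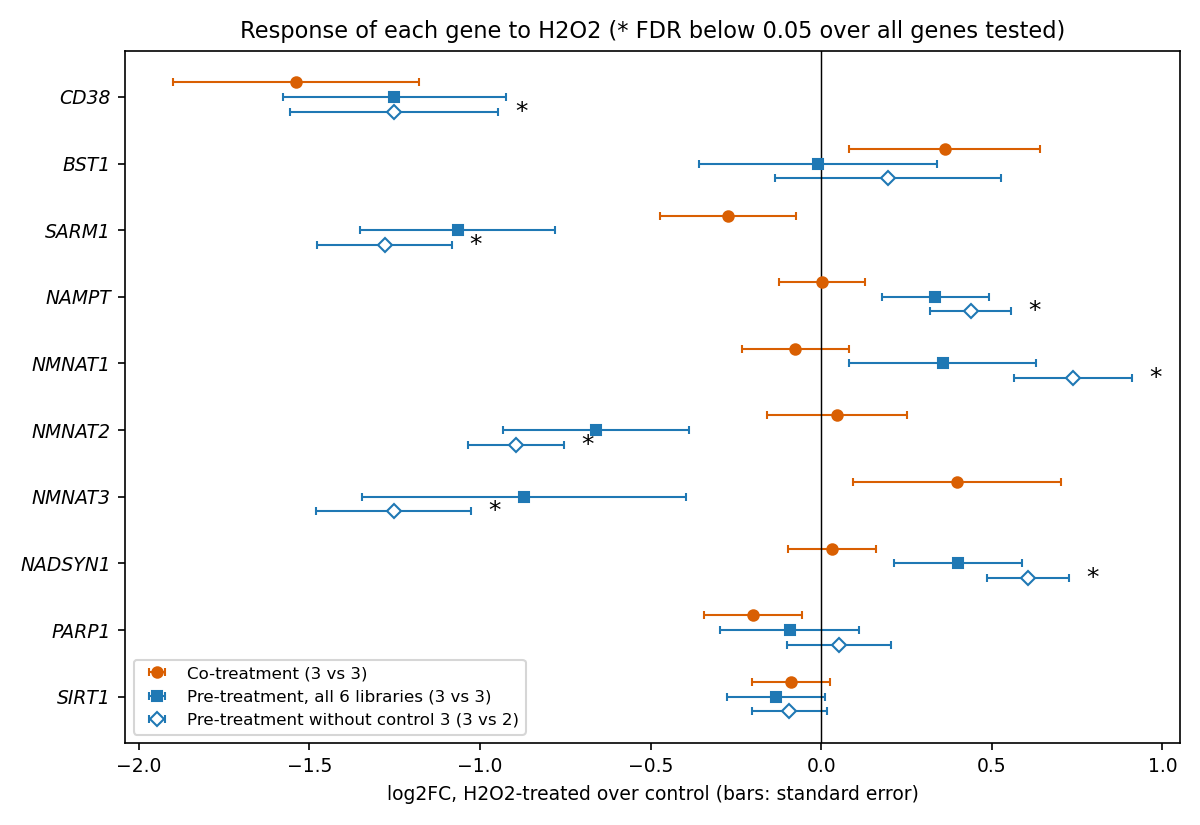
log2FC of each gene, H2O2-treated over control, with the SE as a bar, for co-treatment (circles), pre-treatment with all 6 libraries (squares) and pre-treatment without control replicate 3 (open diamonds), where an asterisk marks an FDR below 0.05. CD38 lies between -1.54 and -1.25 in all 3, and the asterisks stand only at open diamonds, for 7 of the 10 genes.

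SARM1, the axonal NAD hydrolase, was lower in all pre-treated libraries than in the controls. Pre-treatment controls had 34.3, 55.1 and 23.4 CPM and pre-treated cells 16.1, 19.2 and 17.3 CPM, so that the groups did not overlap although the controls ranged widely. The log2FC was -1.07 (SE 0.29, FDR 0.320) over all 6 libraries, where DESeq2 gave an adjusted p of 0.0284 and called 705 genes in all. Without control replicate 3 the log2FC was -1.28 (SE 0.20, FDR 0.00410 by edgeR's quasi-likelihood test). In co-treatment, controls had 37.6, 27.3 and 20.6 CPM and treated cells 27.5, 20.6 and 22.8 CPM, which overlapped (log2FC -0.27, SE 0.20, FDR 0.817). SARM1 lies at chromosome 17, bases 26691378 to 26731067, on the plus strand of hg19, and shares 39.8% of its exon bases with SLC46A1, the gene of the intestinal folate transporter, on the other strand and 17.5% with CTD-2350C19.1 on its own strand. The strand setting of the read counting is not given in the sources used here, so reads of these genes may not be fully separated. SLC46A1 had a log2FC of -0.31 (FDR 0.546) in pre-treatment and -0.26 (FDR 0.281) without control replicate 3. CTD-2350C19.1 had 9.02, 10.8 and 4.86 CPM in pre-treatment controls and 5.54, 5.94 and 6.03 CPM in pre-treated cells, so that control replicate 3 was the lowest of the 6. Its log2FC was -0.46 (SE 0.29, FDR 0.585) over all 6 libraries and -0.69 (SE 0.18, FDR 0.0231) without control replicate 3, the same sign as SARM1, and how far reads of the pair are shared was not tested.

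NMNAT2, whose product is the short-lived axonal NAD synthase that holds SARM1 in check, was called in pre-treatment when control replicate 3 was left out and not with all 6 libraries. Pre-treatment controls had 94.4, 114.8 and 51.5 CPM and pre-treated cells 46.5, 54.4 and 60.0 CPM, with control replicate 3 among the treated values. The log2FC was -0.66 (SE 0.27, FDR 0.423) over all 6 libraries and -0.89 (SE 0.14, FDR 0.00434 by edgeR's quasi-likelihood test) without it. Co-treatment controls had 73.8, 49.7 and 37.8 CPM and co-treated cells 59.5, 48.2 and 59.0 CPM (log2FC 0.05, SE 0.20, FDR 0.982), with wide overlap. As a ratio of counts, NMNAT2 gave 1.82 to 1.96 reads per SARM1 read in co-treatment controls and 2.16 to 2.59 in co-treated cells, and 2.08 to 2.75 in pre-treatment controls and 2.83 to 3.48 in pre-treated cells. The ratio was thus higher in each treated library than in any control of the same experiment, including control replicate 3, although it was looked at with the levels already known and was not tested. In pre-treatment the gap was small, 2.75 against 2.83, and SARM1 alone already separated those groups. Single genes separated the groups for 14% of genes tested in co-treatment and 16.4% in pre-treatment. The share over ratios of gene pairs was not computed.

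NAMPT, the rate-limiting enzyme of the salvage route, was higher in every pre-treated library (60.8, 60.6 and 62.2 CPM) than in the pre-treatment controls (51.3, 43.6 and 53.4 CPM). Its log2FC was 0.33 (SE 0.16, FDR 0.472) over all 6 libraries and 0.44 (SE 0.12, FDR 0.0298 by edgeR's quasi-likelihood test) without control replicate 3. Scaling by library size alone, which moved the median log2FC of all genes to -0.21 in that fit, gave NAMPT 0.22 (FDR 0.234), and the call was lost. In co-treatment the levels were 47.4, 51.2 and 57.8 CPM in controls and 46.9, 54.7 and 54.5 CPM in treated cells, with a log2FC of 0.00 (SE 0.13, 95% interval -0.28 to 0.28, FDR 0.999). Reads assigned to NAMPTL, a pseudogene copy of NAMPT, amounted to 5.56% to 9.43% of the NAMPT count, and how reads were split between the 2 copies is uncertain.

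NMNAT1, the nuclear NAD synthase, and NADSYN1, the glutamine-dependent NAD synthetase, were alike in pre-treatment in how their controls split. NMNAT1 had 9.76, 9.75 and 17.3 CPM in controls and 16.1, 17.2 and 13.2 CPM in pre-treated cells. NADSYN1 had 51.5, 51.0 and 69.0 CPM in controls and 75.5, 80.4 and 66.9 CPM in pre-treated cells. For both, control replicates 1 and 2 lay below all treated libraries while control replicate 3 lay just above the highest treated library for NMNAT1 and among the treated libraries for NADSYN1. With all 6 libraries NMNAT1 had a log2FC of 0.36 (SE 0.27, FDR 0.652) and NADSYN1 one of 0.40 (SE 0.19, FDR 0.472). Without control replicate 3 both were called, NMNAT1 at 0.74 (SE 0.17, FDR 0.0171) and NADSYN1 at 0.61 (SE 0.12, FDR 0.00961) by edgeR's quasi-likelihood test. With library size alone NMNAT1 had 0.52 (FDR 0.0557), no longer called, and NADSYN1 0.39 (FDR 0.0453). In co-treatment NMNAT1 had 11.2, 13.9 and 15.5 CPM in controls and 12.5, 12.4 and 13.5 CPM in treated cells (log2FC -0.08, SE 0.16, FDR 0.957). NADSYN1 had 59.4, 74.8 and 69.0 CPM in co-treatment controls and 69.1, 63.7 and 74.6 CPM in treated cells (log2FC 0.03, SE 0.13, FDR 0.981). Neither gene separated the co-treatment groups.

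NMNAT3, the least abundant of the 3 NMNAT genes, had 4.88, 4.03 and 1.16 CPM in pre-treatment controls and 1.87, 1.91 and 1.57 CPM in pre-treated cells. Control replicate 3 was the lowest of the 6 libraries and the other 2 controls the highest. The log2FC was -0.87 (SE 0.47, FDR 0.529) with all 6 libraries and -1.25 (SE 0.23, FDR 0.00692 by edgeR's quasi-likelihood test) without control replicate 3. Co-treatment controls had 2.08, 1.28 and 1.61 CPM and co-treated cells 1.71, 2.91 and 1.87 CPM, which overlapped (log2FC 0.40, SE 0.31, FDR 0.835).

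PARP1 and SIRT1, which spend NAD on protein modification, were not called in either experiment, with or without control replicate 3. PARP1 had 502, 481 and 610 CPM in co-treatment controls and 532, 423 and 429 CPM in co-treated cells, and 387, 409 and 483 CPM in pre-treatment controls and 369, 341 and 469 CPM in pre-treated cells. Its groups overlapped in both experiments, with a log2FC of -0.20 (95% interval -0.51 to 0.11) in co-treatment and -0.09 (95% interval -0.56 to 0.38) in pre-treatment. SIRT1 had 53.5, 55.0 and 58.5 CPM in co-treatment controls and 54.6, 49.8 and 52.3 CPM in co-treated cells (log2FC -0.09, SE 0.11, FDR 0.916), and 61.3, 56.8 and 58.7 CPM in pre-treatment controls and 53.3, 51.0 and 53.8 CPM in pre-treated cells. The pre-treatment groups of SIRT1 did not overlap, yet the difference was small, with a log2FC of -0.13 (95% interval -0.46 to 0.19, FDR 0.743). Without control replicate 3 the log2FC was 0.05 (FDR 0.826) for PARP1 and -0.09 (FDR 0.563) for SIRT1.

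Over the 10 genes, none was called after co-treatment, where 0.598% of the 22089 genes tested were called, and 1 had an unadjusted p below 0.05, against 8.15% of all genes. DESeq2, edgeR's exact test and the fit without a filter on low counts each called 1 gene, CD38. Each of these also called more genes in all than the main test, up to 535 without a filter against 132. None was called after pre-treatment with all 6 libraries, where 0.0242% of 24743 genes were called, and 3 (CD38, SARM1 and NMNAT2) had an unadjusted p below 0.05, against 11.2% of all genes. DESeq2 called 2 there, CD38 and SARM1, and the exact test 0. In all, DESeq2 called 705 genes there, against 6 by the main test. Without control replicate 3, 7 of the 10 were called, 3 higher (NAMPT, NMNAT1 and NADSYN1) and 4 lower (CD38, SARM1, NMNAT2 and NMNAT3), where 26.1% of 26350 genes were called, 13.2% higher and 12.8% lower, and 40.5% had an unadjusted p below 0.05. The groups did not overlap for 1 gene in co-treatment (14% of all genes), for 4 in pre-treatment (16.4%) and for 8 without control replicate 3 (57.2%). The median log2FC of the 10 genes was -0.04 in co-treatment, -0.11 in pre-treatment and -0.02 without control replicate 3, beside -0.00, -0.01 and 0.01 over all genes tested.

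The levels of several members, taken over both experiments, moved with the share of reads assigned to no feature, per read on a gene. Over the 12 libraries, which share 1 counting scheme and differ in depth, the Pearson correlation of log2CPM with that share was 0.908 for NMNAT3, 0.837 for NMNAT2 and 0.597 for SARM1, and -0.807 for NADSYN1 and -0.770 for NMNAT1. For CD38 it was 0.337 and for SIRT1 0.299. By rank the relation was weaker for those 5 genes, with a Spearman correlation of 0.741 for NMNAT3, 0.559 for NMNAT2, 0.126 for SARM1, -0.545 for NADSYN1 and -0.643 for NMNAT1, and it was 0.231 for CD38 and -0.147 for SIRT1. PARP1 gave -0.466 by Pearson and -0.643 by Spearman. The 2 pre-treatment controls with 0.800 and 0.830 such reads per gene read carried the extreme values of NMNAT2, NMNAT3, NMNAT1 and NADSYN1. In the 3 pre-treatment controls, at shares of 0.200 to 0.830, CD38 was at 1.52 to 1.71 CPM, on counts of 78 to 100. The part of the reads assigned to no feature in the differences of any member, CD38 included, was not tested, and the same correlations were not computed over all genes.

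**Figure D3:**
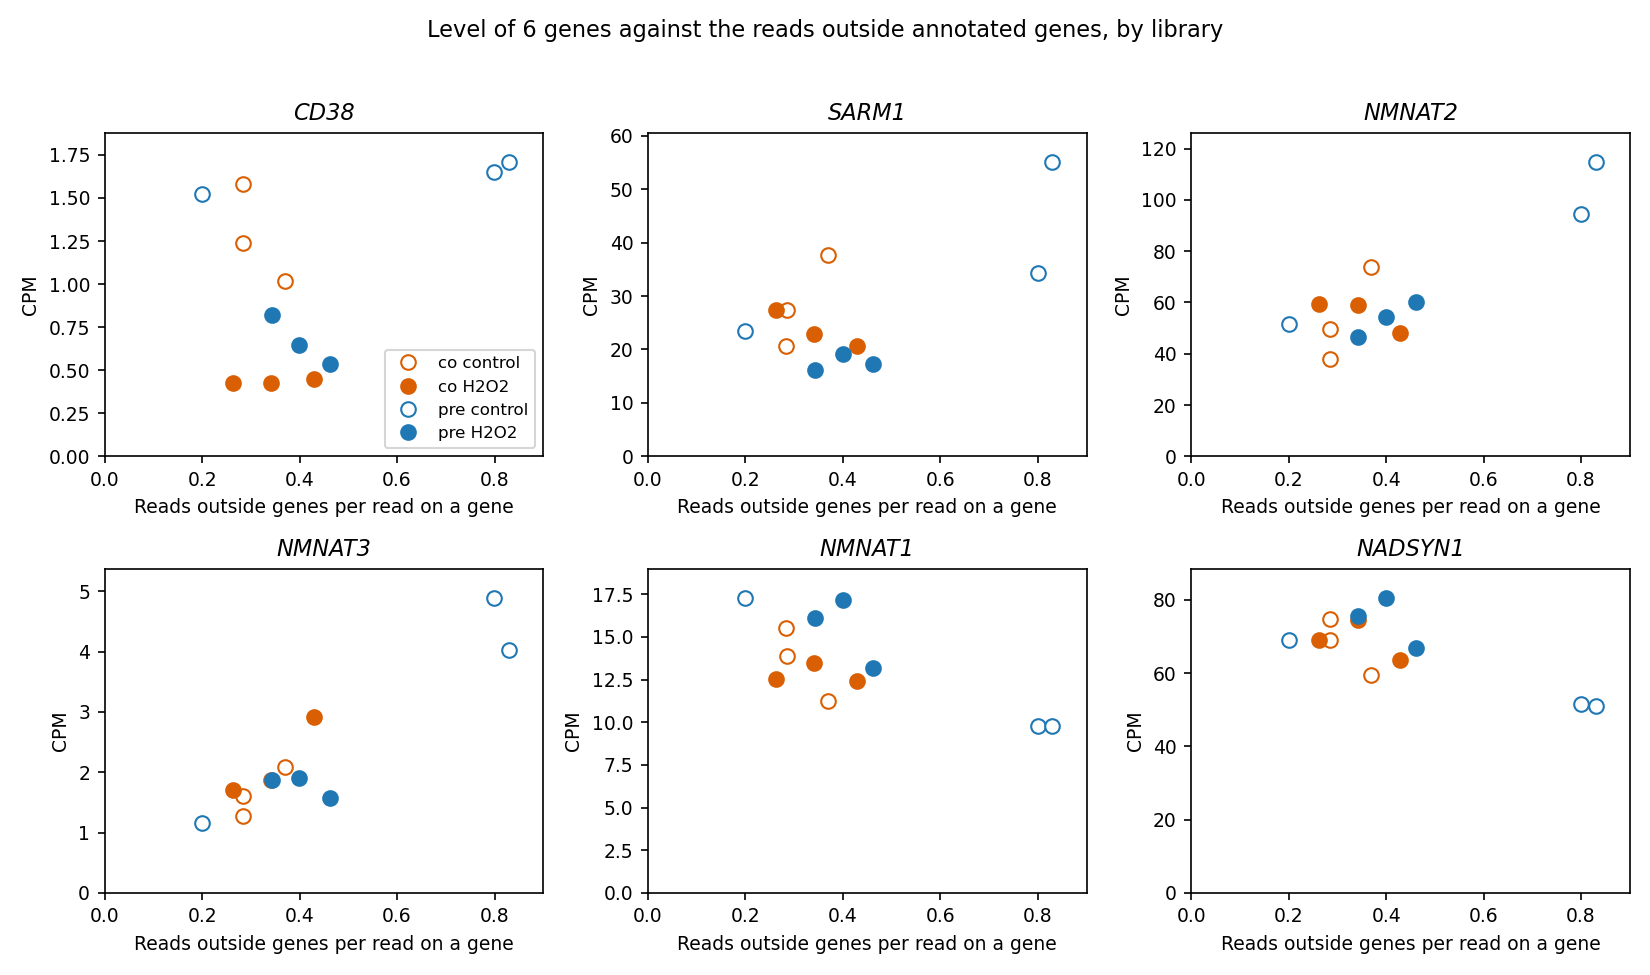
Level of 6 genes (CPM, linear axis from 0) against the reads assigned to no feature per read on a gene in each of the 12 libraries. The axis label calls these reads outside annotated genes, though they may include reads in introns. Open points are controls and filled points H2O2-treated libraries of the co-treatment (orange) and pre-treatment (blue) experiments. The 2 pre-treatment controls at 0.800 and 0.830 are the highest libraries for NMNAT2 and NMNAT3 and the lowest for NMNAT1 and NADSYN1. For CD38 all filled points lie below all open points.

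Whether the response to H2O2 depended on the exposure time was tested with a treatment-by-experiment term in a fit to all 12 libraries. None of the 10 genes was called, where 0.0287% of 24407 genes were, and 1, NMNAT3, had an unadjusted p below 0.05, as had 8.94% of all genes. The difference for CD38, pre-treatment minus co-treatment, was 0.26 on the log2 scale, with a 95% interval of -0.63 to 1.16 (FDR 0.870). NMNAT3 had the largest difference at -1.30 (SE 0.60, FDR 0.558). Without pre-treatment control replicate 3, NMNAT3 was called at -1.70 (SE 0.39, FDR 0.0212 by edgeR's quasi-likelihood test), where 8.02% of genes were called, 4.7% in this direction. The differences for NMNAT2 (-0.99, FDR 0.0506), SARM1 (-1.06, FDR 0.0523) and NMNAT1 (0.76, FDR 0.0575) then missed the threshold narrowly. In that fit 6 of the 10 members had an unadjusted p below 0.05, as had 28.1% of all genes.

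Among 21930 genes, those whose log2CPM followed CD38 most closely over the 12 libraries, after each experiment was centred on its own mean, were TCF4 (Pearson 0.937, Spearman 0.860), which encodes a basic helix-loop-helix transcription factor, KCNK1 (0.926 and 0.811), a potassium channel gene, and SWAP70 (0.923 and 0.895), which encodes a signalling protein that binds Rac and actin. TCF4 had 1158 to 1273 CPM in co-treatment controls against 855 to 940 CPM in co-treated cells, and 1194 to 1342 CPM in pre-treatment controls against 1010 to 1069 CPM in pre-treated cells. Its groups did not overlap in either experiment, although its fold difference was far smaller than that of CD38. The treated side was lower without overlap in both experiments for 0.948% of genes. Of the members, SIRT1 came closest to CD38 with a Pearson correlation of 0.782, and BST1 gave -0.312. All of these libraries share the same treatment contrast, so the correlations describe that contrast as well.

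In 8 lists of related genes, 88 symbols were listed and 77 passed the filter on low counts in each experiment. None of the 77 was called after co-treatment or after pre-treatment with all 6 libraries, by edgeR's quasi-likelihood test, while 9 and 13 had an unadjusted p below 0.05, against 8.15% and 11.2% of all genes. The lowest FDR in co-treatment belonged to PARP8, a mono-ADP-ribosyltransferase (log2FC -0.43, SE 0.12, FDR 0.217). Without pre-treatment control replicate 3, 30 of 78 were called, 16 higher and 14 lower, where 26.1% of all genes were called, 13.2% higher and 12.8% lower. The median log2FC over the lists was then 0.19, beside 0.01 over all genes.

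**Figure D4:**
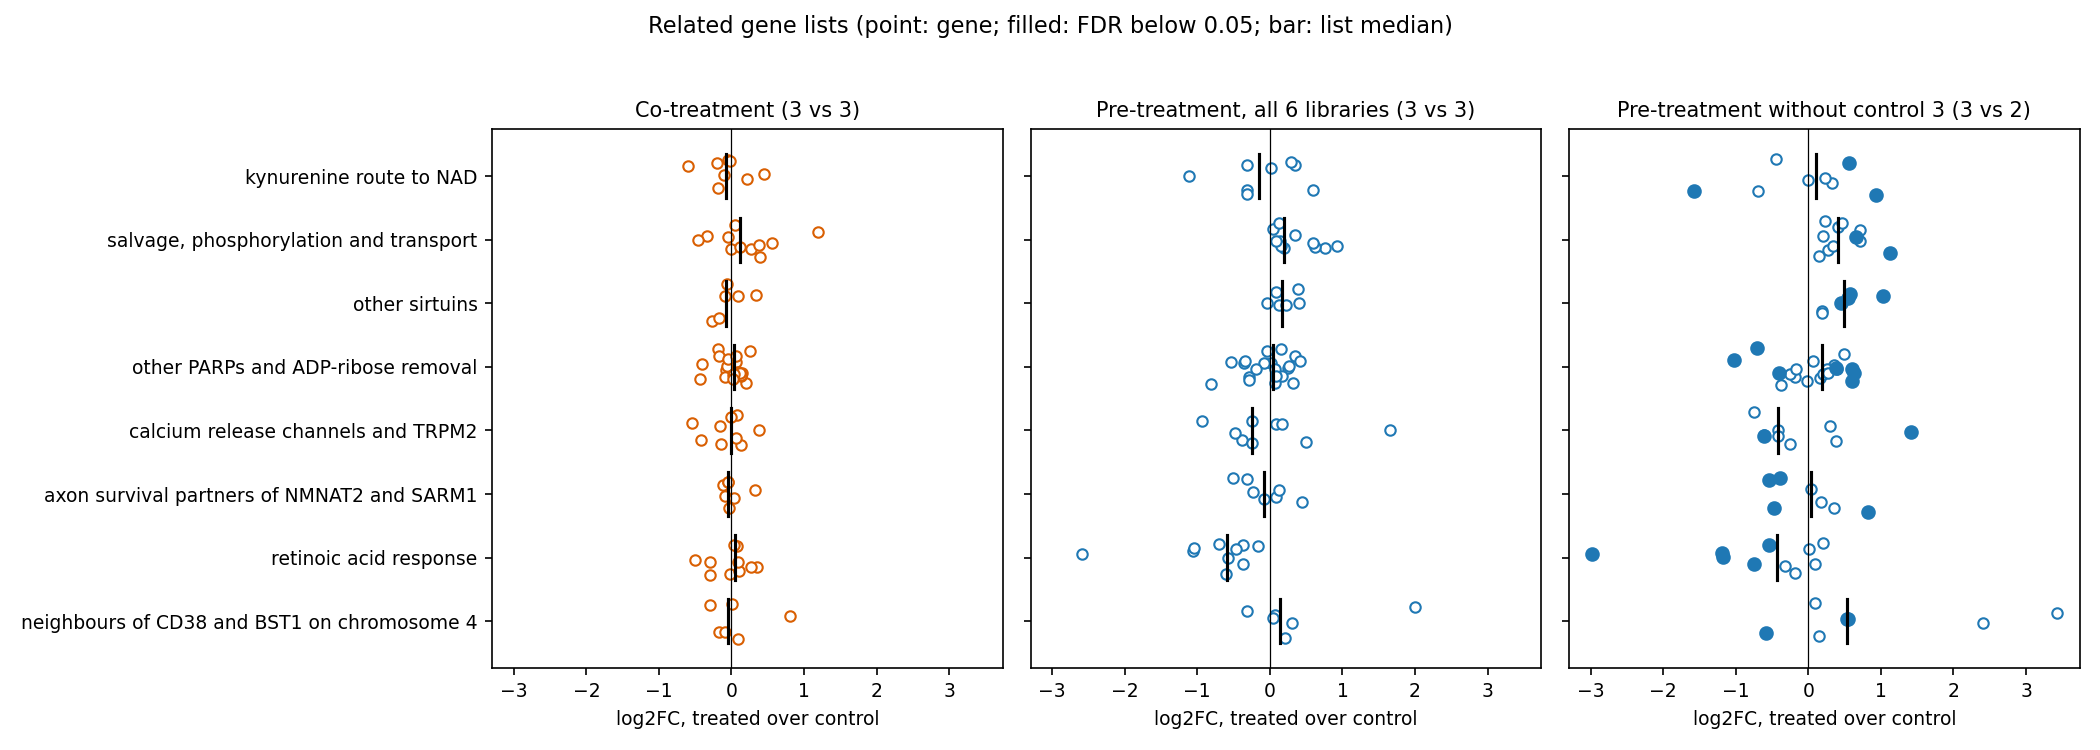
log2FC, H2O2-treated over control, of each tested gene in 8 related lists, for co-treatment, pre-treatment with all 6 libraries and pre-treatment without control replicate 3, with filled points at an FDR below 0.05 and a bar at the median of each list. Filled points are absent from the first 2 panels, and in the third the 4 called sirtuins all lie above 0 and the 5 called retinoic acid genes all lie below 0.

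On the routes into NAD, the kynurenine route from tryptophan had 8 of 12 genes tested and a median log2FC of -0.08 in co-treatment and -0.15 in pre-treatment. QPRT, which makes nicotinic acid mononucleotide from quinolinate, had the smallest FDR in co-treatment (log2FC -0.20, FDR 0.771). Leaving control replicate 3 out, AFMID (0.93, SE 0.16, FDR 0.00551), the kynurenine formamidase, and CCBL1 (0.56, FDR 0.0262), a kynurenine aminotransferase, were called higher and HAAO (-1.58, SE 0.38, FDR 0.0195), which makes quinolinate, was called lower. That fit called 26.1% of all genes, 13.2% higher and 12.8% lower. With all 6 libraries AFMID was at 0.59 (FDR 0.438), CCBL1 at 0.29 (FDR 0.649) and HAAO at -1.11 (FDR 0.565). Of the 15 genes of salvage, phosphorylation and transport, 11 were tested, with medians of 0.12 and 0.19. NAPRT1, which starts the route from nicotinic acid, had 1.63, 1.40 and 1.25 CPM in pre-treatment controls and 2.26, 2.39 and 2.44 CPM in pre-treated cells (log2FC 0.76, SE 0.27, FDR 0.357). All its treated libraries lay above all controls, in an experiment where the groups did not overlap for 16.4% of all genes. NADK2, the mitochondrial NAD kinase, had a log2FC of -0.33 (FDR 0.413) in co-treatment. PNP, which frees the base from nicotinamide riboside, had 7.75, 7.45 and 16.4 CPM in pre-treatment controls and 17.1, 14.7 and 15.5 CPM in pre-treated cells, so that control replicate 3 again lay among the treated libraries, and its log2FC went from 0.59 (FDR 0.533) to 1.12 (SE 0.16, FDR 0.00335) without that library. NUDT12, an NAD(H)-cleaving hydrolase, was the other gene of this list called there (0.65, FDR 0.0250, against 0.35 and FDR 0.624 with all 6 libraries). These 2 of 11 stand beside the 26.1% of all genes called in that fit.

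Of the users of NAD beside the members, the 6 other sirtuins had a median log2FC of -0.08 in co-treatment and 0.17 in pre-treatment. SIRT2, a mostly cytosolic deacetylase, came first in co-treatment (0.33, SE 0.13, FDR 0.515) and SIRT5, a mitochondrial desuccinylase, in pre-treatment (0.38, SE 0.19, FDR 0.493). With control replicate 3 left out, 4 of the 6 were called higher, where 13.2% of genes were, among them SIRT2 (0.57, FDR 0.0250), SIRT4 (1.03, FDR 0.0318) and SIRT5 (0.55, FDR 0.0321). With all 6 libraries SIRT2 was at 0.12 (FDR 0.882) and SIRT4 at 0.40 (FDR 0.739). Of 21 other PARPs and ADP-ribose erasers, 20 were tested, and their median log2FC was 0.03 in co-treatment and 0.04 in pre-treatment. TNKS, the gene of the telomere-associated tankyrase, had 336, 352 and 175 CPM in pre-treatment controls and 151, 169 and 161 CPM in pre-treated cells, with a log2FC of -0.81 (SE 0.26, FDR 0.324), and -1.03 (SE 0.11, FDR 0.00107) without control replicate 3. In that fit 4 of the 20 were called higher, beside 13.2% of all genes, and 3 lower, beside 12.8%. OARD1, which removes ADP-ribose from proteins, was at 0.61 (FDR 0.0217) there and at 0.35 (FDR 0.588) with all 6 libraries, and PARP11 at -0.71 (FDR 0.0246) and -0.53 (FDR 0.480).

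Among channels of calcium signalling, 9 genes of calcium release channels and of TRPM2, a channel opened by ADP-ribose, were tested. RYR2, the cardiac and neuronal ryanodine receptor, had 1.11, 1.62 and 0.655 CPM in pre-treatment controls and 3.35, 3.45 and 3.57 CPM in pre-treated cells. All pre-treated libraries lay above all controls, control replicate 3 being the lowest of the 6. The groups did not overlap for 16.4% of all genes tested in pre-treatment. The log2FC of RYR2 was 1.66 (SE 0.35, FDR 0.320) over all 6 libraries and 1.42 (SE 0.26, FDR 0.00712 by edgeR's quasi-likelihood test) without control replicate 3. In co-treatment RYR2 had 1.69, 0.661 and 0.994 CPM in controls and 1.17, 1.12 and 0.719 CPM in treated cells, which overlapped (log2FC -0.16, FDR 0.969). Its difference between the exposure times was 1.78 (SE 0.55, FDR 0.497). RYR1, the ryanodine receptor of skeletal muscle, lay the other way, at 5.15, 4.67 and 6.51 CPM in pre-treatment controls and 3.14, 3.10 and 2.14 CPM in pre-treated cells. These groups of RYR1 did not overlap either, with a log2FC of -0.94 (SE 0.27, FDR 0.320), and -0.74 (SE 0.24, FDR 0.0525) without control replicate 3. ITPR1, an inositol trisphosphate receptor, had the smallest FDR of the list in co-treatment (-0.42, FDR 0.374), and TPCN2, a lysosomal channel of NAADP signalling, was called lower without control replicate 3 (-0.61, FDR 0.0198, against -0.48 and FDR 0.439 with all 6 libraries). In that fit 1 of the 9 was called higher and 1 lower, where 26.1% of all genes were called.

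Of 7 genes tied to the axonal balance of NMNAT2 and SARM1, none was called with all libraries. MYCBP2, a ubiquitin ligase that limits NMNAT2, had a log2FC of 0.33 (FDR 0.649) in co-treatment, and TMEM184B one of -0.51 (FDR 0.360) in pre-treatment. When that control was left out, STMN2 (0.83, FDR 0.00612), a microtubule regulator of axons, was called higher and 3 genes lower, among them MYCBP2 (-0.48, FDR 0.0216) and MAP3K13 (-0.38, FDR 0.0388), a kinase of axon injury signalling, where 26.1% of all genes were called. With all 6 pre-treatment libraries STMN2 was at 0.44 (FDR 0.599), MYCBP2 at -0.24 (FDR 0.756) and MAP3K13 at -0.31 (FDR 0.518).

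CD38 is a known retinoid-inducible gene, so 10 genes of retinoic acid response were listed beside it. Their median log2FC was 0.05 in co-treatment and -0.59 in pre-treatment, and none was called with all libraries. In co-treatment CRABP2, a retinoic acid carrier, came first (0.35, SE 0.14, FDR 0.505). RARA, retinoic acid receptor alpha, had 55.4, 76.8 and 43.9 CPM in pre-treatment controls and 29.1, 31.7 and 21.8 CPM in pre-treated cells (log2FC -1.06, SE 0.24, FDR 0.320). These groups of RARA did not overlap, as was found for 16.4% of all genes in pre-treatment. In co-treatment its log2FC was 0.07 (FDR 0.975). With control replicate 3 left out, 5 of the 10 were called, all lower, where 12.8% of all genes were called lower, among them RARA (-1.19, FDR 0.00469), STRA6 (-0.75, FDR 0.0228, against -0.70 with all 6 libraries), a retinol transporter, and RET (-1.17, FDR 0.0254, against -1.04), a receptor tyrosine kinase. The median over all genes in that fit was 0.01 and that of the list -0.43.

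Pre-treated replicate 3 stood apart for several of these genes. CYP26A1, which breaks down retinoic acid, had 1200, 1191 and 122 CPM in the pre-treated libraries, against 1154, 841 and 1797 CPM in the controls. CRABP2 had 1692, 1545 and 284 CPM and DHRS3, a retinal reductase, 504, 459 and 101 CPM in the same pre-treated libraries. CYP26B1, a relative of CYP26A1, had 315, 426 and 21.5 CPM in pre-treated cells and 1873, 2329 and 511 CPM in controls. Its groups did not overlap even so, as those of 16.4% of all genes did not. A fit without pre-treated replicate 3, added after the data had been seen, gave the list a median log2FC of -0.27 in place of -0.59, with none called. Without that library and control replicate 3, 5 of the list were called lower and 3 higher, where 33.1% of all genes were called, and the median of the list was -0.20. CRABP2 (0.64), DHRS3 (0.42) and RARB (0.43), a receptor gene that retinoic acid induces, were the 3 called higher, and RARA (-1.08) and RET (-0.91) remained lower. CD38 was at -1.12 (SE 0.37) without pre-treated replicate 3 and at -1.15 (SE 0.31, FDR 0.0259) without both libraries.

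The identity of the cells was checked with marker genes. All 8 neuroblastoma and neuronal markers were detected in each library, with a summed level of 3311 to 4408 CPM. The 10 leukocyte markers, listed because CD38 and BST1 are best known from blood cells, summed to 0.556 to 2.30 CPM, with 3 to 8 of the 10 at 0 in a library. PTPRC (CD45), the common leukocyte antigen, had 0, 33 and 5 reads in co-treatment controls and 0, 0 and 1 in co-treated cells, and 4, 0 and 9 in pre-treatment controls and 15, 13 and 14 in pre-treated cells. Co-treatment control replicate 2, the library with 33, also held 16 reads of ITGAM, 27 of LYZ and 8 of SPI1. Control replicates 1 and 3 held 0 and 1 of ITGAM and 0 and 0 of LYZ. In replicate 2 CD14 had 17 reads, and 4 of the 10 markers were at 0. CD38 was at 1.24 CPM there, between replicates 1 and 3. Leaving that library out was among the 3 removals that ended the common CD38 call, the other 2 being of co-treated libraries. Without it the common fit called 7 genes in all, against 33 with all 12 libraries. Over the removals of each library the common CD38 log2FC was -1.50 to -1.31. The source of the leukocyte marker reads was not tested. In the 4 libraries at 0 reads of PTPRC, CD14, a monocyte marker, had 28, 6, 38 and 68 reads and CD38 had 50, 12, 28 and 78. Summed leukocyte markers were 0.556 to 2.30 CPM in co-treatment controls and 0.659 to 1.30 CPM in co-treated cells, and 0.915 to 1.75 CPM in pre-treatment controls and 0.852 to 1.08 CPM in pre-treated cells. Of the 10, only CD14 could be tested in co-treatment (log2FC 0.55, FDR 0.882). Without pre-treatment control replicate 3 CD14 was called lower (-1.15, FDR 0.0300, against -0.85 and FDR 0.520 with all 6 libraries), as were 12.8% of all genes. The summed neuronal markers were 4181 to 4408 CPM in co-treatment controls and 3349 to 4031 CPM in co-treated cells, and 3311 to 4355 CPM in pre-treatment controls and 3480 to 3668 CPM in pre-treated cells, so the co-treatment groups did not overlap in this sum either. HAND2, a transcription factor of noradrenergic neurons, had the smallest FDR of the neuronal list in co-treatment (-0.58, SE 0.14, FDR 0.119) and PHOX2A in pre-treatment (-0.78, SE 0.21, FDR 0.320). With pre-treatment control replicate 3 left out, STMN2 was called higher, as given above, and PHOX2A (-0.73, FDR 0.0230) and DBH (-1.72, SE 0.45, FDR 0.0259), the noradrenaline-making hydroxylase at -1.48 (FDR 0.338) with all 6 libraries, were called lower. That fit called 26.1% of all genes. The part of cell state in the CD38 difference was not tested.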

How the data were processed

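RNA-seq counts from 12 libraries of SH-SY5Y cells were analysed, 3 in each of 4 groups taken from the sample titles. According to the methods and the submitters' processing notes, FastQC 0.11.8 served for quality checks, cutadapt 2.10 for trimming, HISAT2 2.1.0 for alignment to hg19 and HTSeq 0.7.2 for counting. The counts were deposited by the authors as raw reads per gene symbol, without normalization, and the strand setting and annotation version are not given in the sources used here. The 5 closing entries, which name no gene and held 40.0% to 59.9% of entries' reads in a library, were left out of library sizes. The authors' 2 tables of fold changes and p-values were not used.

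The versions used were edgeR 4.0.16, DESeq2 1.42.0 and limma 3.58.1, under R 4.3.3. Genes were kept when their CPM reached that of 5 counts in the smallest library (0.181 in co-treatment, 0.120 in pre-treatment) in at least 3 libraries. Each experiment was fitted apart with TMM factors and edgeR's quasi-likelihood test, p-values were adjusted over all genes by Benjamini-Hochberg (FDR), and a call needed an FDR below 0.05. The interaction was fitted over all groups. The scripts were tested on simulated data. Levels are CPM on TMM factors over 12 libraries, with a prior count of 2 for log2CPM, and RPKM uses canonical transcript lengths and positions of GENCODE lifted to hg19, where 115 of 115 listed symbols matched. Depth is given in the report, and at 12 to 100 reads the CD38 values carry the largest counting error.

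All 10 members were named. From each list, up to 3 genes per comparison with an FDR below 0.05 and the smallest FDR were named, or else the 1 with the smallest FDR. The 3 genes most correlated with CD38 were added. Members and lists were chosen with earlier results of these data known. RYR2 and RARA in co-treatment, RYR1, SLC46A1, CTD-2350C19.1, PTPRC, ITGAM, LYZ, SPI1 and CYP26A1, CYP26B1, DHRS3, RARB and CRABP2 in pre-treatment are named outside this rule, after their values were seen. Alternatives were edgeR's exact test, DESeq2, RLE factors, library size alone, no filter, filterByExpr, 1 fit over both experiments, thresholds on the absolute log2FC (0.6 and 1), a replicate block and leaving out each library.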

Additional observations from a re-analysis of the deposited data

How the results depend on the processing

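The low CD38 of treated cells kept its sign under all alternatives run, at -1.54 to -1.48 in co-treatment and -1.33 to -1.25 in pre-treatment with all 6 libraries, while its call depended on the test, with an FDR of 0.0107 to 0.178 and 0.0151 to 0.574. With a library left out CD38 was -1.68 to -1.37 and -1.42 to -1.12. Of the 10 genes, 1 was called in co-treatment by edgeR's exact test, by DESeq2 and without a filter, and 2 in pre-treatment by DESeq2. Each of these settings also called more genes in all than the main test, as counted below. Without pre-treatment control replicate 3, the count was 7 by edgeR's quasi-likelihood test, by RLE factors, by the exact test and by DESeq2. It was 5 with library size alone. These pairings of choices were added after the data had been seen. The quasi-likelihood test there called 26.1% of all genes, and the shares called in the other fits are not given here. In the fit of a common response the count fell to 0 without each of 3 libraries and was otherwise 1, and in the interaction it was 1 without pre-treatment control replicate 3 and otherwise 0. Leaving out each library in turn gave 0 to 7 members called in pre-treatment and 0 in co-treatment. The cause of these shifts was not tested.

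Signs turned for values near 0. In co-treatment NAMPT was -0.0019 in 1 fit over both experiments, and leaving out single libraries gave NAMPT -0.061 to 0.081, NADSYN1 -0.054 to 0.10, NMNAT2 -0.15 to 0.35 and NMNAT1 -0.19 to 0.030. In pre-treatment the same gave BST1 -0.25 to 0.20 and PARP1 -0.24 to 0.053, and in the interaction PARP1 -0.055 to 0.25 and SIRT1 -0.099 to 0.021. Without pre-treatment control replicate 3, BST1 was 0.18 with RLE factors, 0.20 by the exact test and 0.18 by DESeq2, and PARP1 0.035, 0.053 and 0.035.

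Over all genes, the co-treatment count of 132 became 333 by the exact test, 342 by DESeq2, 80 with library size alone, 535 without a filter, 3 in 1 fit over both experiments and 18 to 223 with a library left out. The pre-treatment count of 6 became 271, 705, 1, 319 and 68 in the same order and 0 to 6871. The interaction count of 7 became 106 by DESeq2, 4 with library size alone, 272 without a filter and 0 to 2058, and the common count of 33 became 21 with library size alone and 7 to 187. Library size alone moved the median log2FC of all genes to -0.12 in the interaction.

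Whether libraries of the same replicate number share a culture or batch is not given in the sources used here. Residuals of same-numbered libraries correlated at -0.0785, -0.0786 and -0.0435 in co-treatment and -0.225, 0.0264 and -0.273 in pre-treatment. With 3 libraries per group these values cannot settle that question. A replicate block left 0 members called in both experiments and in the interaction, put BST1 at 0.023 in pre-treatment and called 181, 0 and 0 genes in all. Counting depth limits CD38, BST1 and NMNAT3 most.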
